A study of Mus musculus with 4 samples.

Results

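The genes described here encode the proteins of the cytosolic ribosome, measured on 4 arrays that compared the heart of Tbx3 mutant mouse embryos with that of wild type embryos. The members were taken by name: every probe that is no control spot and whose gene name is Rpl or Rps followed by a digit, or is Rplp0, Rplp1, Rplp2 or Rpsa, with the ribosomal protein kinases and pseudogenes left out. This gave 82 genes with 137 probes, out of 41174 probes on the array. A probe was kept if the red or the green signal, or both, stood well above background on 3 or more arrays, which 134 of the 137 member probes and 28794 of all probes passed. The kept probes covered all 82 member genes and 19092 genes in all. The 3 probes left out were a cDNA clone probe each of Rps19 and Rps2, above background in neither channel on any array, and a clone probe of Rpl22l1.

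Each array carried RNA from 1 pool of mutant tissue and 1 pool of control tissue, so that the 4 arrays are 4 replicates of 1 comparison and the 8 pools are all different. The tissue was the atrioventricular canal, the narrow part of the heart tube between the future atria and ventricles, dissected at e10.5 from embryos of a mixed Sv129 and C57Bl6 background. Each pool held the pieces of 5 hearts. The mutants are named hypomorphic for Tbx3 in the study's title, that is, they have less of this repressor, which is known for its part in forming the conduction system. Tbx3 itself gave log2 ratios of -1.35, -1.40, -1.43 and -1.21 on the 4 arrays. All values below are log2 of red over green, and so of mutant (Cy5, red) over wild type control (Cy3, green). No array swapped the dyes, so a dye effect and an effect of the genotype cannot be told apart. All 4 arrays lay on 1 slide. The control signal was well above background on all 4 arrays for 7 of 7 cardiomyocyte markers and 6 of 6 markers of the atrioventricular canal, Tbx3 among them. In tissue pools, fewer cells of a type and less RNA per cell cannot be told apart either.

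The cytosolic ribosome translates messenger RNA in the cytoplasm and is built from a large and a small subunit, each a folded ribosomal RNA with many small, basic proteins bound to it. The genes of these proteins are among the most strongly transcribed in any growing cell, and their products are made in matching amounts. Their messages begin with a run of pyrimidines, through which growth signals set how much of them is translated. On an array they are therefore mostly bright spots, and a two-colour ratio of a bright spot also carries whatever the scanner, the dyes and the normalization do at the bright end.

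For that reason the ratios are also given relative to other probes of the same brightness. Brightness is A, the mean of the log2 red and log2 green signals after background correction and normalization. It describes a spot and not an amount of RNA, since probes differ in how well they bind. Of the 134 kept member probes, 94 had A of 15 or more, 69 had 16 or more and 33 had 17 or more. At 17 or more the members made up 37.5% of all probes on the array. The other end was filled as well, with 19 member probes under an A of 11. The 115 probes made to RefSeq messenger RNAs had a median A of 16.33, and the 19 made to cDNA clones, ESTs or predicted transcripts had a median A of 9.54. No member spot was saturated or marked as non-uniform on any array.

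The probes that the comparisons turn on are printed here 5′ to 3′ as designed, with the place the array's own annotation gives them on mouse build mm7. For 3 small subunit genes the bright probe is followed by a dim probe of the same gene name, which the annotation puts on the same chromosome and strand but elsewhere. Only the first 30 of the 60 bases of these dim probes are given. For Rpl7a the capitals mark the 14 bases that its brightest and its dimmest probe share. An array annotation of exons for mm7 was not used here, but a span longer than the probe shows that its alignment is split by an intron.
Rpl5, chr5:107081179-107082086, plus strand: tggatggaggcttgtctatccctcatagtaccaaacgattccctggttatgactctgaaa
Rps18 bright, chr17:32030069-32030128, minus strand: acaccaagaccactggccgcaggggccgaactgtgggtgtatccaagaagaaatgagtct
Rps18 dim, chr17:32032424-32032483, minus strand: ttttttaattctgcactttggcaaacaatg
Rps12 bright, chr10:23538288-23538347, minus strand: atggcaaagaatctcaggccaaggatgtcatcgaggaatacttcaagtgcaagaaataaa
Rps12 dim, chr10:23539315-23539374, minus strand: tctactgtttgaggtaaagtcaggtgattt
Rps15a bright, chr7:114037415-114037718, minus strand: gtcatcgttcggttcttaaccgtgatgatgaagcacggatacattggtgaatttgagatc
Rps15a dim, chr7:114027381-114027440, minus strand: gtgagtcagcagaaagtatagatagcaaag
Rpl7a brightest, chr2:26920485-26920544, plus strand: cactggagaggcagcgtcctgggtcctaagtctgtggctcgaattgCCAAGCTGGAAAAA
Rpl7a middle, chr2:26918784-26918843, plus strand: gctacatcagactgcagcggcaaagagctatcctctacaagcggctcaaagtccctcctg
Rpl7a dimmest, chr2:26920531-26920589, plus strand: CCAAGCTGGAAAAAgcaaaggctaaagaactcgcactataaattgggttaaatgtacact
Rps21 bright, chr2:180758913-180759144, plus strand: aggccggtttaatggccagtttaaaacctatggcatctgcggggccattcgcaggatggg
Named Rplp0 by the array, chr8:101459316-101459375, minus strand: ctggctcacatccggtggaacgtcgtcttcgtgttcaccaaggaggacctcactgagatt
Named Arbp by the array, now Rplp0, chr5:114782273-114782332, plus strand: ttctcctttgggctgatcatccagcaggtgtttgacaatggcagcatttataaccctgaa

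Most ribosomal protein genes had a normalised ratio above 0, that is more mutant than control signal, on every array. With each gene read from its brightest kept probe, 55 of the 82 members (67.1%) were above 0 on all 4 arrays, against 12.3% of all genes, and 0 were below 0 on all 4, against 12.6%. The members' median log2 ratio was 0.37, where that of all genes was 0.0012, and their means ran from -0.24 for Rps21 to 0.95 for Rpl5. Of the 82 means, 76 were above 0. By array the members' median was 0.68, 0.29, 0.32 and 0.26, with 79, 69, 68 and 65 of the 82 above 0, while between 47.6% and 50.7% of all genes were above 0.

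No single member passed the test across all genes. In limma, 53 of the 82 members (64.6%) were higher at an unadjusted p under 0.05, beside 7.1% of all genes, and 0 were lower, beside 7.45%. After Benjamini-Hochberg adjustment 0 of 82 members passed 0.05, beside 0.00524% of all genes, which is Tbx3 alone with a mean of -1.35 ± 0.10 (SD, n = 4 arrays) and an adjusted p of 0.0454. The lowest adjusted p among the members was 0.0991, for Rpl19, which was higher on 4 of 4 arrays. The size of the members' ratios depended on the processing of the signals. With the scanner software's own processed signals in place of the background correction used here the median was 0.15 and 24 of 82 members were higher at an unadjusted p under 0.05, beside 6.35% of all genes. With each array centred on its median in place of loess, which fits the ratio against brightness, the median was 1.18, and that of all genes was 0.23.

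**Figure D1:**
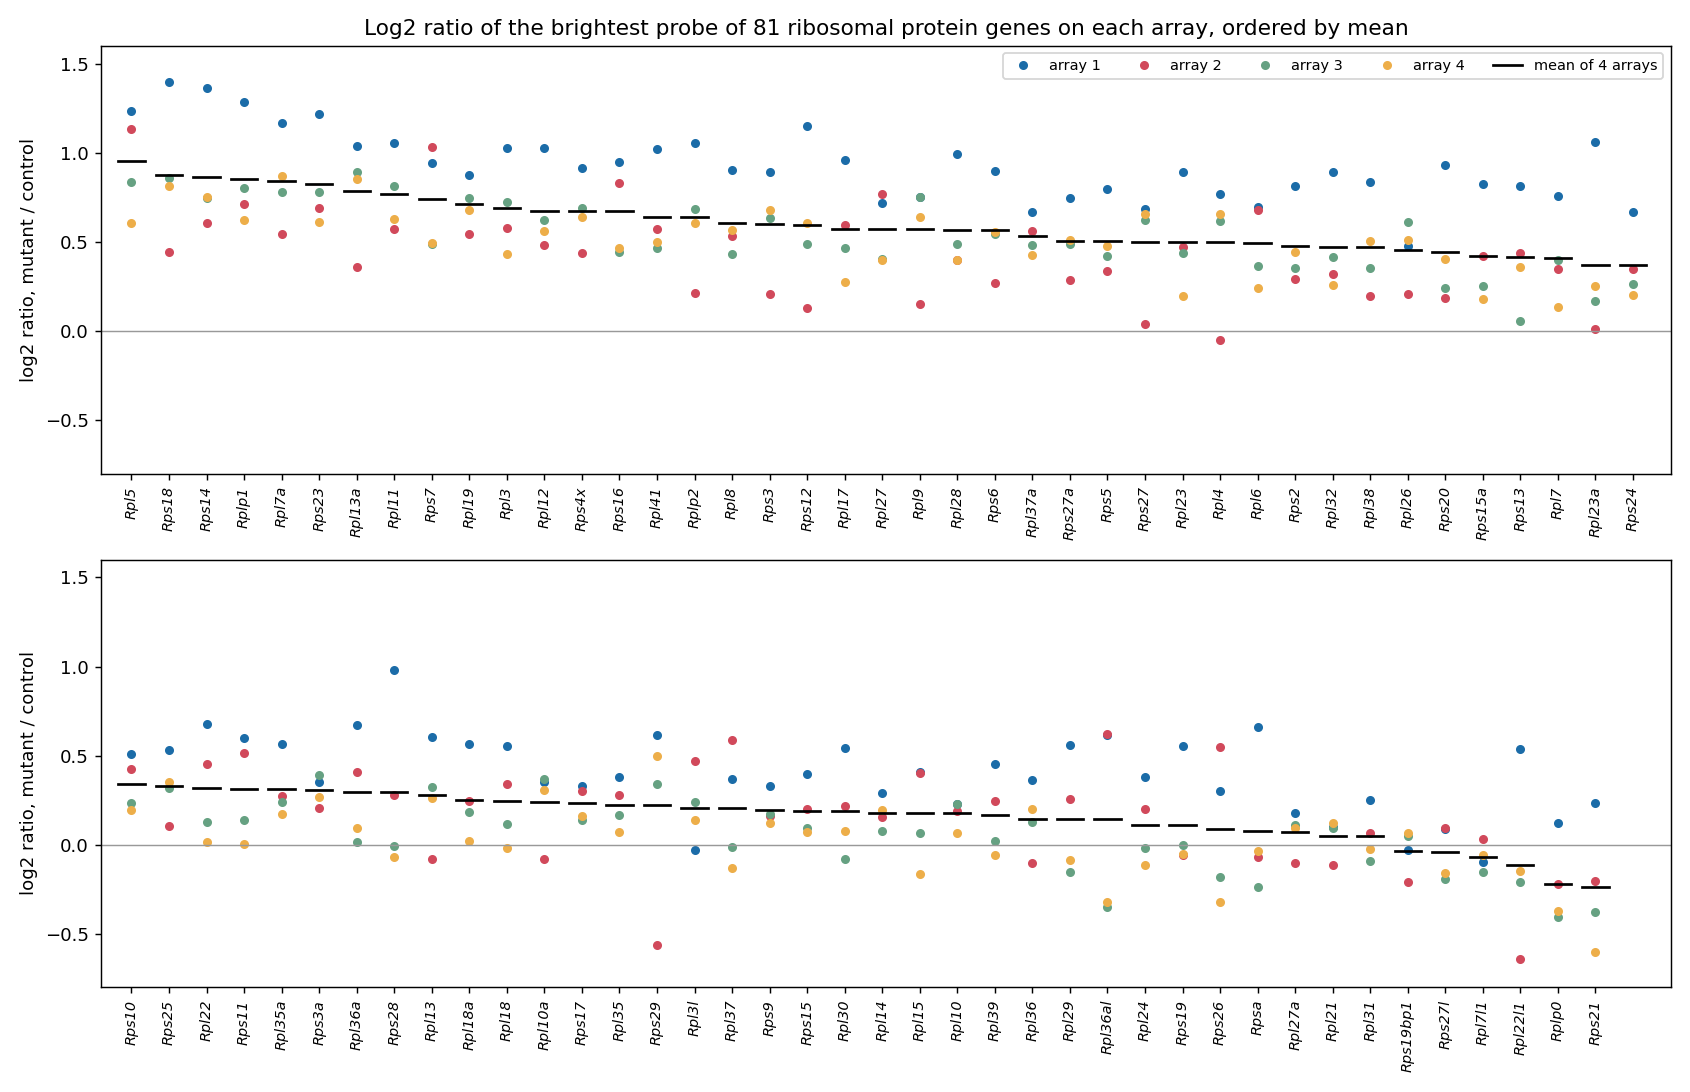
Log2 ratio of mutant over control (vertical axis) of 81 of the 82 ribosomal protein genes, ordered by mean, with a point for each of the 4 arrays and a line for the mean. The points of array 1 lie mostly on top, with a median of 0.68, and the 6 genes at the low end, from Rps21 to Rps19bp1, have means under 0.

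Genes of both subunits were mostly higher. The 45 large subunit genes had a median of 0.41, and 30 of them were higher on all 4 arrays. The 31 small subunit genes had a median of 0.42, and 25 were higher on all 4 arrays. Relative to probes near in brightness, by the measure described further on, these medians were 0.17 and 0.15. Of these genes 29 have an A of 17 or more, where the probes set against them had a lower median A. The difference between the subunits was not tested. The 6 measured paralogs and genes that only share the name pattern had a median of -0.04, and 0 of 6 were higher on all 4 arrays or reached an unadjusted p under 0.05 in limma. These 6 were dimmer, with a median A of 13.78 against 16.46 and 16.85 for the large and small subunit genes.

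In the large subunit, Rpl5 and Rpl11 form with 5S ribosomal RNA the particle that is also known to bind Mdm2 when ribosome assembly is disturbed. Rpl5 had log2 ratios of 1.24, 1.14, 0.84 and 0.61, a mean of 0.95 ± 0.29 (SD, n = 4 arrays), or 1.94-fold. Rpl11 had 1.06, 0.57, 0.81 and 0.63, with a mean of 0.77 ± 0.22. All 8 values were well above 0, yet the adjusted p by limma was 0.120 for each.

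The stalk of the large subunit, which draws in the elongation factors, is made of Rplp0, Rplp1 and Rplp2. Rplp1 had log2 ratios of 1.29, 0.71, 0.80 and 0.62 (mean 0.86 ± 0.30, SD, n = 4 arrays). Rplp2 had 1.06, 0.21, 0.68 and 0.61 (mean 0.64 ± 0.35). The probe that the array names Rplp0 gave other values, 0.12, -0.22, -0.41 and -0.37, with a mean of -0.22 ± 0.24. It was spotted 10 times on each array, and the SD over these spots was between 0.0075 and 0.027, so its values were closely repeated within an array.

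That probe was made to the accession U89419 and the array's annotation puts it on chromosome 8. The gene now called Rplp0 goes by its older name Arbp on this array, and the 2 probes of that name lie on chromosome 5, at chr5:114784305-114784364 and chr5:114782273-114782332. They are no members by the rule on names, and the tie between both names comes from the RefSeq gene table. The first gave 0.84, 0.20, 0.31 and 0.36, with a mean of 0.43 ± 0.28 (SD, n = 4 arrays). The second gave 0.87, 0.82, 0.62 and 0.63, with a mean of 0.73 ± 0.13 and an adjusted p of 0.111 by limma. Both were above 0 on all 4 arrays, as Rplp1 and Rplp2 were, and unlike the chromosome 8 probe. A second case is Rpl34, found under the name 1100001I22Rik, whose chromosome 3 probe gave 0.76, 0.44, 0.66 and 0.60, with a mean of 0.62 ± 0.13. Another kept probe of that name, placed on chromosome 6, gave 0.52, 0.33, 0.02 and 0.03, with a mean of 0.23 ± 0.24. The gene now named Rps4l, under 1110033J19Rik, gave -0.34, 0.03, -0.40 and -0.84, with a mean of -0.39 ± 0.36.

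Rpl7a, Rpl10 and Rpl19 showed how far members of the large subunit differed. Rpl7a had log2 ratios of 1.17, 0.55, 0.78 and 0.87 (mean 0.84 ± 0.26, SD, n = 4 arrays). Rpl19 had 0.87, 0.55, 0.75 and 0.68 (mean 0.71 ± 0.14). Rpl10, at the peptidyl transferase side of the subunit and one of the last proteins to join, had 0.23, 0.19, 0.23 and 0.07 (mean 0.18 ± 0.08). Rpl10 was above 0 on all 4 arrays like the other pair, but its 4 values all lay under the lowest value of either.

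In the small subunit the highest ratios were those of Rps18, Rps14 and Rps23. Rps18, at the head of the subunit, had 1.40, 0.44, 0.86 and 0.81 (mean 0.88 ± 0.39, SD, n = 4 arrays). Rps14, a protein of the platform, had 1.37, 0.60, 0.74 and 0.75 (mean 0.87 ± 0.34). Rps23, near the decoding centre, had 1.22, 0.69, 0.78 and 0.61 (mean 0.83 ± 0.27). In each of the 3 genes array 1 was the highest, and no array was under 0.44.

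Rps4x, the X-linked form of this protein, had log2 ratios of 0.92, 0.44, 0.69 and 0.64 (mean 0.67 ± 0.20, SD, n = 4 arrays). Rps6, the protein that S6 kinases phosphorylate, had 0.90, 0.27, 0.55 and 0.56 (mean 0.57 ± 0.26). Rps27a, made as a fusion with ubiquitin, had 0.75, 0.28, 0.49 and 0.51 (mean 0.51 ± 0.19). For all 3 the lowest array was array 2. Rpsa, also known as the laminin receptor, had 0.66, -0.07, -0.24 and -0.04, and was above 0 on array 1 only, with a mean of 0.08 ± 0.40.

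Rps21, a small protein of the 40S subunit, had the lowest mean of the 82 members. Its log2 ratios were 0.23, -0.20, -0.38 and -0.60, a mean of -0.24 ± 0.35 (SD, n = 4 arrays). Its other probes, within the same gene, gave -0.09 ± 0.19 and -0.11 ± 0.21. All 3 probes were above 0 on array 1 and below 0 on arrays 2, 3 and 4. With arrays centred on their median in place of loess, Rps21 and the other 5 members with means under 0 turned positive, at 0.37 to 0.68, beside an all-gene median of 0.23.

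Those other 5 were the chromosome 8 probe named Rplp0 and 4 paralogs or genes that share the name pattern. Rpl22l1, a paralog of Rpl22, gave 0.53, -0.64, -0.21 and -0.15 (mean -0.12 ± 0.49, SD, n = 4 arrays). Rps27l, a paralog of Rps27 known as a p53 target, gave 0.09, 0.09, -0.19 and -0.16 (mean -0.04 ± 0.15). Rpl7l1 had a mean of -0.07 ± 0.08 and Rps19bp1, which binds Rps19 and is no ribosomal protein, one of -0.03 ± 0.13. The partners of Rpl22l1 and Rps27l had higher log2 ratios: Rpl22 had a mean of 0.32 ± 0.30 and Rps27 one of 0.50 ± 0.31. Relative to probes of the same brightness, by the narrower window described further on, Rpl22 had 0.22 ± 0.28 and Rpl22l1 -0.49 ± 0.48. Rps27, at an A of 17.17, then had -0.03 ± 0.33, and Rps27l had -0.10 ± 0.17. Rpl3l, the form of Rpl3 found in heart and skeletal muscle, was near the floor of the array at an A of 7.11 and gave 0.21 ± 0.21, with array 1 at -0.03. No difference between a paralog and its partner was tested.

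Brightness and ratio went together among the members. Over the 134 member probes the Pearson correlation of A with the log2 ratio was 0.70, 0.45, 0.40 and 0.38 on the 4 arrays. These points share their array, and many bright ones share a gene. The GC content of the probe had correlations of 0.13, 0.23, -0.05 and -0.03 with the ratio. The same rise with A was there in probes of other genes. At A of 17 or more the 33 member probes had medians of 0.98, 0.50, 0.49 and 0.55 on the 4 arrays, and the 55 other probes had 0.68, 0.61, 0.52 and 0.42. All 33 of these member means were above 0. So were the means of 50 of 51 other probes and of all 4 non-member probes described as ribosomal protein.

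Between A of 16 and 17 the 36 member probes had medians of 0.56, 0.28, 0.25 and 0.18, beside 0.26, 0.26, 0.25 and 0.22 for 207 other probes. Between 15 and 16 the 25 member probes had 0.45, 0.20, 0.13 and 0.04, beside 0.03, -0.00, 0.03 and 0.02 for 481 other probes. Under an A of 10 the 15 member probes had 0.08, -0.06, 0.15 and -0.02, beside medians of 0.01 to 0.02 in 16820 other probes. On array 1 the members lay above the others in each class from an A of 10 upward, by 0.21 to 0.42. On array 2 they did so by 0.21 at 13 to 15 and 0.20 at 15 to 16, but lay 0.02 above at 16 to 17 and at -0.10 from the others at 17 or more. On arrays 3 and 4 the members' distance from the others ran from -0.06 to 0.12 in the classes from 10 upward. Averaged over arrays the members' excess was 0.07 ± 0.18 (SD, n = 4 arrays) at 17 or more, 0.07 ± 0.16 at 16 to 17, 0.19 ± 0.17 at 15 to 16 and 0.12 ± 0.18 at 13 to 15. Only in the class from 15 to 16 was it larger than the spread between arrays.

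**Figure D2:**
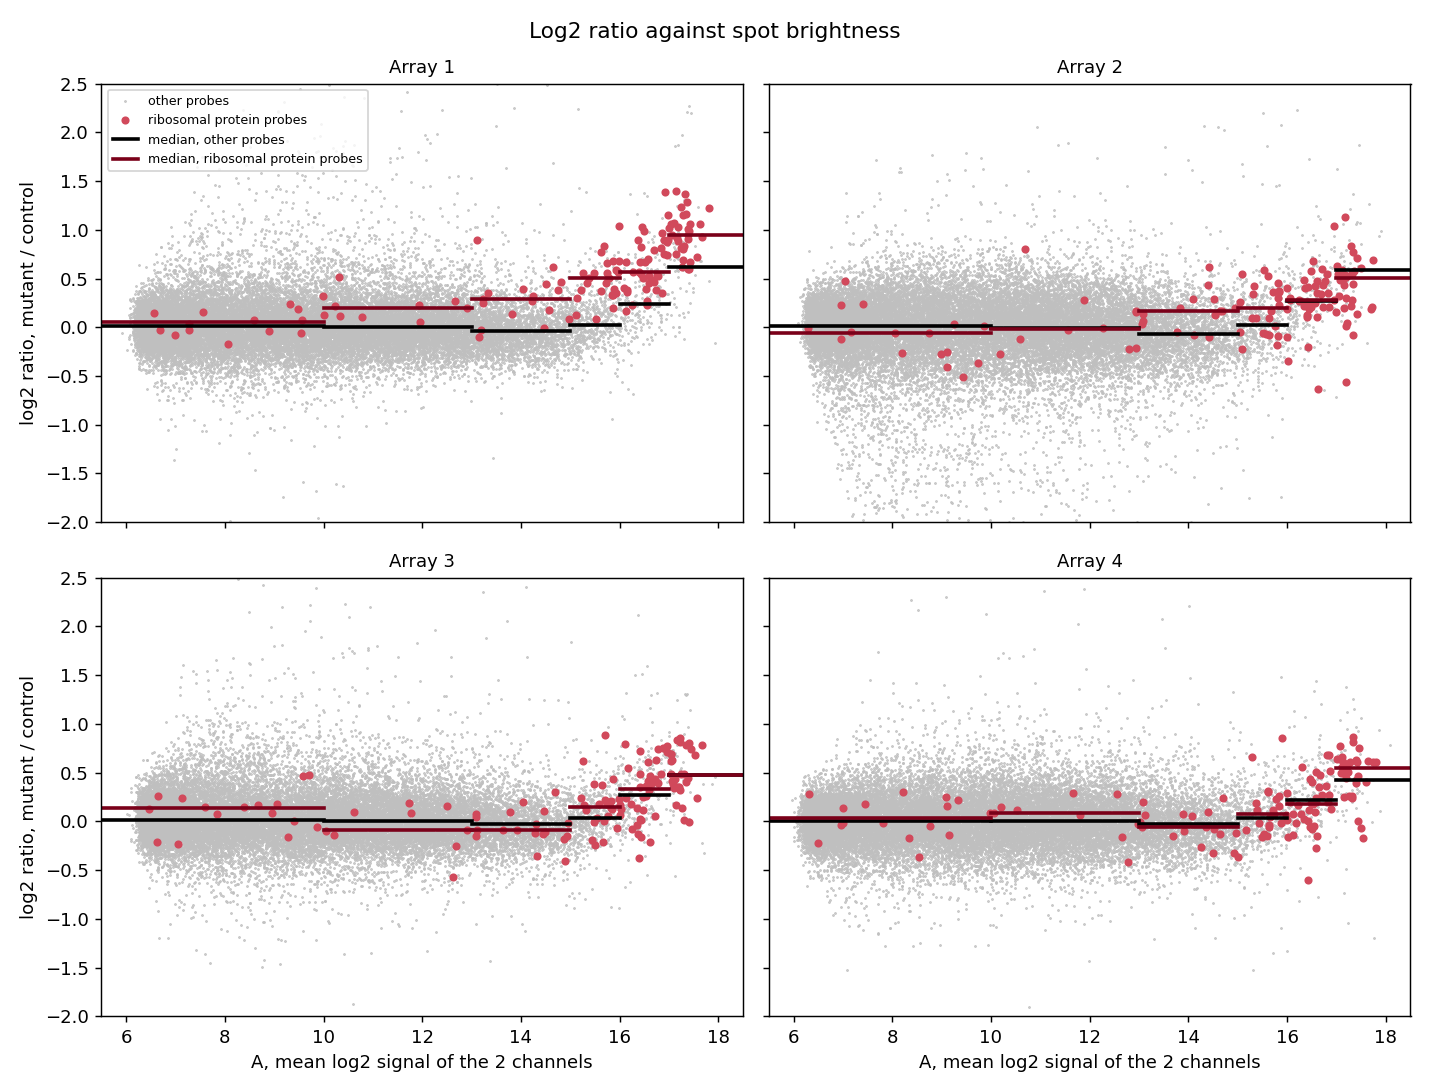
Log2 ratio (vertical axis, drawn from -2 to 2.5) against spot brightness A (horizontal axis) on each of the 4 arrays, with ribosomal protein probes over all other kept probes and, in each class of A on that array, a line for the median of either kind. The cloud turns upward above an A of 16 in every panel, and the ribosomal protein probes follow it, lying above it on array 1.

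The scanner software marked spots for which it took the signal from a second scan at low gain, scaled up. On arrays 1 to 4, 95, 91, 94 and 94 of the member probes carried this mark in both channels, and their median log2 ratios were 0.67, 0.30, 0.33 and 0.25. Other probes with the mark in both channels, between 804 and 962 of them, had medians of 0.06, 0.04, 0.04 and 0.04. These 2 groups differ in brightness. An A of 16 or more was reached by 69 member probes. Of the other probes, only 207 lay at 16 to 17 and 55 at 17 or more, so most of those marked were dimmer. Within a class of A the members' excess was smaller, as given above. Member probes with the mark in neither channel, 29 or 30 of them, had 0.12, -0.03, 0.08 and 0.06. Members with the mark in both channels thus had higher medians than unmarked members on every array. Members with the mark in red only, 10 to 14 of them, had 0.35, 0.20, -0.06 and -0.07. The part of the low-gain scan in the ratio was not tested. The mean spot signals show the scale: for the brightest Rpl7a probe, green was 69398, 79490, 80495 and 77850 and red was 402342, 333538, 341574 and 349996, where the median spot of the arrays had 118 to 134 in green and 175 to 233 in red.

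To take brightness out, the median log2 ratio of the non-member probes nearest in A, about 100 on each side, was subtracted from each probe on each array. On this equal-brightness scale the median of the 134 member probes was 0.13, and by array 0.35, 0.07, 0.06 and 0.05. Of the 134 probes, 40 (29.9%) were above 0 on all 4 arrays, beside 11.8% of all probes. In limma 33 (24.6%) were higher at an unadjusted p under 0.05, beside 6.79% of all probes, and 1 was lower, beside 6.08%. None passed an adjusted p of 0.05, beside 0.00347% of all probes. Before this subtraction the same probes had a median of 0.23, with 65 higher at an unadjusted p under 0.05 and again 0 after adjustment, beside 0% of all probes.

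Much of what was left came from array 1 and from the brightest class. Without array 1 the equal-brightness median of the members was 0.05, with 20 probes higher and 8 lower at an unadjusted p under 0.05, beside 5.05% and 4.77% of all probes. Of the 33 higher probes with all arrays, 17 had an A of 17 or more, where too few probes lie above for the window to be centred: the window's median A there was 16.69 and the members' was 17.25. With about 25 probes on each side the members in that class had a median of 0.10 in place of 0.24, with 8 of 33 at an unadjusted p under 0.05 in place of 17. In the other classes the narrower window left the median between 0.04 and 0.17.

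Among the genes with the highest equal-brightness ratios was Rpl13a, a large subunit protein. Rpl13a, named here after its value was seen, had equal-brightness log2 ratios of 0.92, 0.30, 0.81 and 0.77, a mean of 0.70 ± 0.28 (SD, n = 4 arrays), at an A of 15.8. Rpl5 and Rps18 have an A over 17, where the window is off centre. Rpl5 had 0.83, 0.76, 0.45 and 0.31, a mean of 0.59 ± 0.25, and 0.42 ± 0.22 with the narrower window. Rps18 had 0.99, 0.07, 0.48 and 0.52, a mean of 0.51 ± 0.38, and 0.35 ± 0.37 with the narrower window. Against the median of other probes at A of 17 or more, Rpl5 was above on 4 of 4 arrays and Rps18 on 3, with array 2 at -0.17. Rpl13a, with an A under 16, stayed at 0.70 ± 0.27 with the narrower window. The lowest adjusted p among all members on this scale was 0.203 by limma.

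Rps21 was the 1 member at an unadjusted p under 0.05 in the other direction. Its brightest probe had -0.03, -0.46, -0.62 and -0.82 on the equal-brightness scale, a mean of -0.48 ± 0.34 (SD, n = 4 arrays), lower on 4 of 4 arrays, with an unadjusted p of 0.0126 and an adjusted p of 0.279 by limma. The middle and the dim probe of Rps21 had -0.17 ± 0.17 and -0.09 ± 0.19, above 0 on array 1 only. Rpl22l1 stood next to it, with 0.19, -0.96, -0.54 and -0.39 and a mean of -0.42 ± 0.48. Rpl19 had 0.35 ± 0.12 and Rpl10 had 0.05 ± 0.06. Rplp1 and Rpl11, both at an A over 17, had 0.49 ± 0.26 and 0.41 ± 0.19, which became 0.32 ± 0.24 and 0.24 ± 0.17 with the narrower window. Against other probes at A of 17 or more Rpl11 was at -0.03 on array 2.

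**Figure D3:**
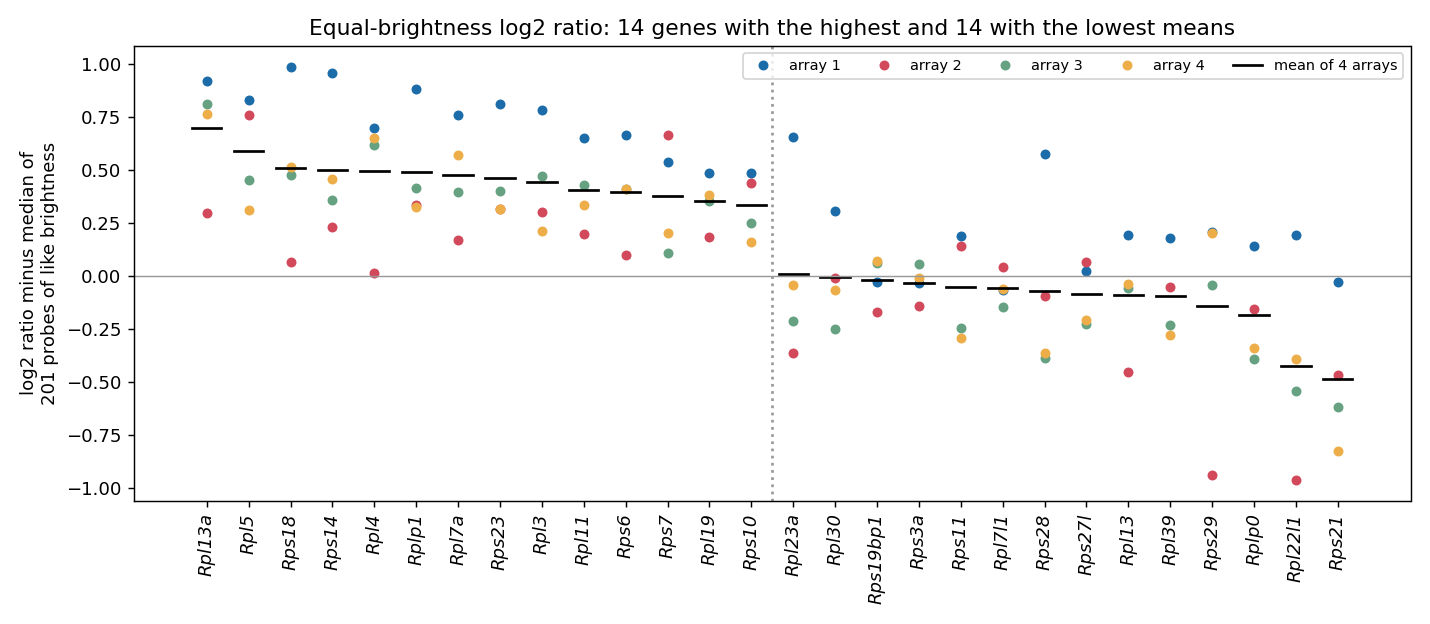
Equal-brightness log2 ratio (vertical axis, the probe's log2 ratio minus the median of the non-member probes nearest in brightness) of the 14 genes with the highest and the 14 with the lowest mean among the same 81 ribosomal protein genes, a point per array and a line for the mean. Rpl13a has the highest mean, 0.70, and Rps21 the lowest, -0.48, and the points of array 1 mostly lie above the others.

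Several probes of 1 gene were read in the same RNA pools, and differ in brightness but also in sequence and position. For 40 members with at least 2 kept probes, the log2 ratio of the dimmest was subtracted from that of the brightest. The median of this difference was 0.19, and by array 0.36, 0.19, 0.17 and 0.15, where the median over all 6703 genes with 2 kept probes was -0.04. In 31 of 40 genes the bright probe had the higher ratio. At an unadjusted p under 0.05 in limma the bright probe was higher in 20 genes, beside 5.1% of all genes, and lower in 2, beside 11.3%. After adjustment 0 of the 40 passed 0.05, beside 0.0149% of all genes.

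The difference was not limited to dim probes close to background. In the 6 members with a bright probe of A 16 or more and 1 to 3 units of A between the probes, the median difference was 0.45, and all 6 were above 0. In 26 non-member genes of this kind the median was 0.23, with 23 above 0. In the 12 members with a bright probe of A 16 or more and over 6 units of A between the probes, the median difference was 0.50, and all 12 were above 0. In the 30 non-member genes that met the same limits the median was 0.20, with 26 above 0. Some of these dim probes lie away from the bright one: 2295 bases away for Rps18, 967 for Rps12, 9974 for Rps15a and 18627 for Rps6. Whether they read the same transcript as the bright probe was not tested.

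The bright Rps18 probe, with the ratios given above, stood against a dim probe with a mean of -0.07 ± 0.11, and the difference by array was 1.37, 0.49, 1.09 and 0.83 (mean 0.94 ± 0.37, SD, n = 4 arrays). For Rps4x, whose dim probe was made to an EST, it was 0.95, 0.21, 0.90 and 0.86 (mean 0.73 ± 0.35). For Rps6 it was 0.97, 0.40, 0.28 and 0.59 (mean 0.56 ± 0.30). In all 3 the dim probe's own mean was within 0.07 of 0. These dim probes had an A of 7.12 for Rps18, 6.69 for Rps4x and 6.89 for Rps6, near the floor of the array. A ratio near 0 there does not show that the message was unchanged.

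Other members with wide gaps in brightness gave lower means. Rpl35a, with 9.81 units of A between its probes, had 0.42, 0.29, 0.12 and -0.11 (mean 0.18 ± 0.23, SD, n = 4 arrays). Rpl13, with 8.66 units, had 0.64, -0.02, 0.16 and 0.43 (mean 0.30 ± 0.29). Rps15a had 0.99, 0.48, 0.18 and 0.20 (mean 0.46 ± 0.38). Rpl35a and Rpl13 each had 1 array below 0, while Rps15a had none.

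With a bright probe of A 16 or more and under 1 unit of A between the probes, 9 members had a median difference of 0.05. Of these, 6 were above 0. In 24 non-member genes of this kind the median was 0.13, with 15 above 0. The lowest unadjusted p of all member pairs in limma was that of Rpl7a, whose probes lie in the same message yet disagreed. The brightest and the dimmest Rpl7a probe are 1.56 units of A apart and overlap in the 14 bases in capitals above. Their difference was 0.66, 0.63, 0.72 and 0.79 (mean 0.70 ± 0.07, SD, n = 4 arrays), with an unadjusted p of 5.18e-05 and an adjusted p of 0.130 by limma. The 3 Rpl7a probes, from bright to dim, had means of 0.84 ± 0.26, 0.42 ± 0.12 and 0.14 ± 0.26. On the equal-brightness scale the difference was 0.41 ± 0.11. The brightest probe has an A over 17, where the window is off centre. Its equal-brightness mean fell from 0.48 ± 0.25 to 0.31 ± 0.25 with the narrower window. Before the subtraction for brightness, the gap of 0.70 between these Rpl7a probes was larger than the spread of either between arrays.

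Rpl19 was alike, with a difference of 0.42, 0.45, 0.58 and 0.56 between its probes (mean 0.51 ± 0.08, SD, n = 4 arrays), which fell to 0.16 ± 0.12 on the equal-brightness scale. Rpl10, whose probes differ by 0.14 in A, had a difference of 0.03 ± 0.05. The 2 genes with a dimmer probe that was higher at an unadjusted p under 0.05 were Rpl7l1, with -0.24 ± 0.20, and Rps19bp1, with -0.21 ± 0.08.

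At equal brightness the gap between probes mostly closed. The median difference over the 40 members was then 0.004, with 21 of 40 above 0. In limma 5 of 40 (12.5%) were higher at an unadjusted p under 0.05, beside 4.98% of all genes. At that level 2 were lower, beside 655 of all 6703 genes: Rps21 with -0.39 ± 0.18 and Rps19bp1 with -0.22 ± 0.09 (SD, n = 4 arrays). In the 12 members with a bright probe of A 16 or more and over 6 units of A between the probes, the median was 0.21. It was 0.03 in the 30 non-member genes that met the same limits. Some of these members, Rps18 and Rps4x among them, have a bright probe in the brightest class, where the window is off centre. Rpl37 and Rpl27a also had over 6 units between their probes, but a bright probe under an A of 16. Their mean differences at equal brightness were 0.001 and 0.06.

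**Figure D4:**
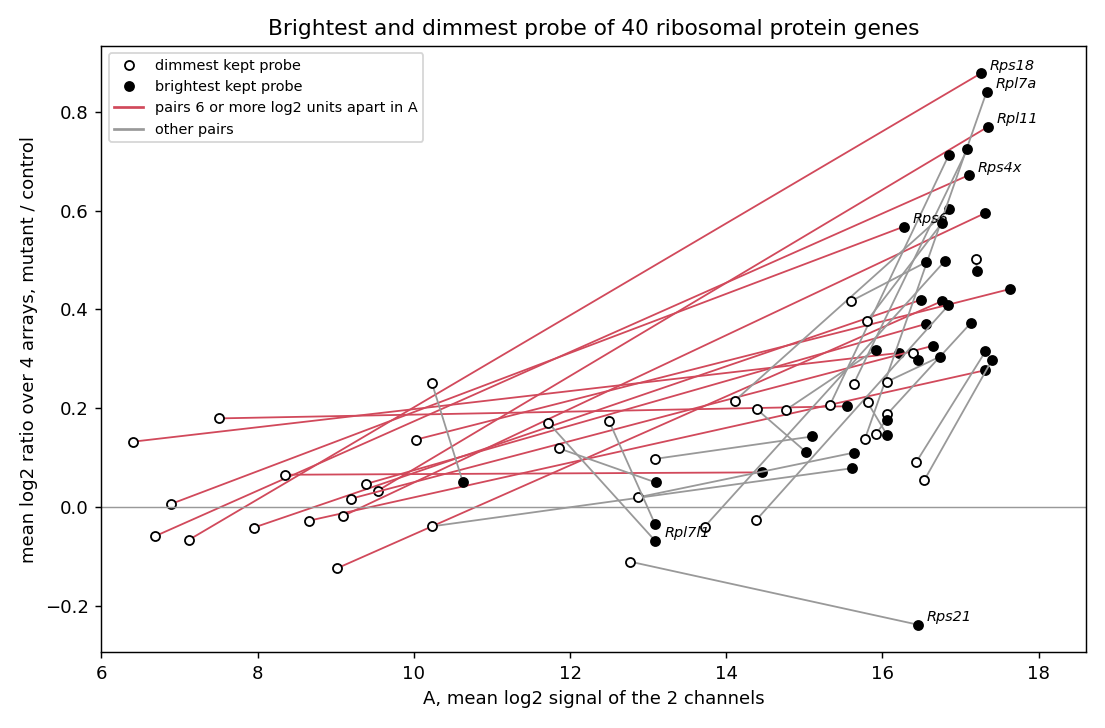
Mean log2 ratio over 4 arrays (vertical axis) of the brightest (filled) and the dimmest (open) kept probe of 40 ribosomal protein genes, joined by a line, coloured where the pair is over 6 units of A apart, and placed by spot brightness A (horizontal axis). The bright ends lie above the dim ends in 31 of the 40 genes.

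Genes that work with the ribosome were read from lists chosen by name. Shares of all genes at an unadjusted p under 0.05 in limma, here as before, were 7.1% higher and 7.45% lower, and on the equal-brightness scale 6.79% and 6.08% of all probes. Of 8 elongation factor genes 6 were higher at that level and 1 was lower, with a median of 0.30. At equal brightness 3 were higher and 1 lower, with a median of 0.19. Eef1a1, which brings aminoacyl-tRNA to the ribosome, had 0.51, 0.43, 0.88 and 0.73 (mean 0.64 ± 0.20, SD, n = 4 arrays), and 0.28 ± 0.22 at equal brightness. Eef1g, of the exchange factor for Eef1a1, had 0.35, 0.54, 0.26 and 0.17 (mean 0.33 ± 0.16), and -0.03 ± 0.15 at equal brightness. Of the 5 genes of proteins that sit on the ribosome or are made as fusions with one of its proteins, 3 were higher at that level, with a median of 0.32, and 1 was higher at equal brightness, with a median of 0.07. Rack1, a scaffold on the head of the small subunit, had 0.95, 0.68, 0.74 and 0.74, with a mean of 0.78 ± 0.12. Its adjusted p was 0.0949 by limma. It was higher on 4 of 4 arrays, and had 0.41 ± 0.11 at equal brightness. Eef1a1 and Rack1 both have an A over 17, where the window is off centre.

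Lists of dimmer genes had medians near that of all genes. The 34 genes of ribosome assembly had a median log2 ratio of 0.004, with 5 higher and 0 lower at an unadjusted p under 0.05, beside the shares of all genes just given. The 29 genes of initiation factors and the poly(A)-binding protein Pabpc1 had a median of 0.07, with 5 higher and 0 lower. The 78 mitochondrial ribosomal protein genes, whose products build the separate ribosome of that organelle, had a median of 0.01, with 9 higher and 7 lower. Their median A was 13.38. A list of 17 abundant housekeeping genes, with a median A of 16.13, had a median of 0.13, with 5 higher and 2 lower, and at equal brightness a median of 0.06 with 2 higher and 1 lower.

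The arrays did not weigh alike. Array 1 was the highest of the 4 in 67 of the 82 members (81.7%), and in 25.8% of all genes. Erythroid markers also differed between arrays, and the median of 8 such genes was 1.76, 0.78, -0.23 and -0.08 on the 4 arrays. Of the embryonic globins, Hbb-bh1 had 2.20, 0.99, 0.45 and 0.78, and Hbb-y had 2.21, 1.26, -0.22 and 0.11. On array 2, markers of uterus and decidua had a median of -2.31 and leukocyte markers one of -1.84, and over all genes this array had correlations of -0.06 to 0.07 with the other 3. Cardiomyocyte markers, the tissue's own, had a median of 0.57 over all arrays, with 5 of 7 higher at an unadjusted p under 0.05, beside 7.1% of all genes. At equal brightness their median was 0.24, with 3 of 7 higher, beside 6.79% of all probes. All 3 have an A over 17, where the window is off centre. By array the cardiomyocyte medians were 0.21, 0.85, 0.74 and 0.31. The part of any of these cell types in the ribosomal protein ratios was not tested. Arrays 3 and 4 had correlations with each other of 0.66 over all genes and 0.93 over the 82 members. There the members' medians were 0.32 and 0.26, beside 0.29 on array 2.

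Leaving out array 2 moved members past the threshold. Over the 3 remaining arrays, an alternative added after seeing the data for its calls, 10 of the 82 members (12.2%) were higher at an adjusted p under 0.05 in limma, beside 0.681% of all genes, and 0 were lower. They were Rpl13a (0.93), Rpl9 (0.71), Rpl19 (0.77), Rps27 (0.66), Rpl4 (0.68), Rpl7a (0.94), Rps3 (0.73), Rps4x (0.75), Rpl11 (0.83) and Rpl26 (0.53), each with its mean log2 ratio. At equal brightness 2 probes were left, Rpl13a with 0.83 ± 0.08 (SD, n = 3 arrays) and an adjusted p of 0.0412, and Rpl4 with 0.66 ± 0.04 and 0.0451, beside 0.215% of all probes. Rpl4 had 0.77, 0.62 and 0.66 on arrays 1, 3 and 4 and -0.05 on array 2. Leaving out array 1, 3 or 4 gave no call among the members, and none among all genes or all probes either.

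The starts of the members' transcripts were read as well. RefSeq promoters on GRCm38.p6 were matched by symbol for 62 of the 82 members, with 73 starts. A run of at least 8 pyrimidines (C or T, plus strand of the gene) between 10 bases before and 15 after the start was there in 22 of 73 member starts (30.1%), in 9.49% of all 32851 starts and in 6.67% of those of mitochondrial ribosomal protein genes. The run is printed in capitals for the gene with the highest ratio in the small subunit and for the one with the lowest.
Rps18, chr17:33955636-33955695, minus strand: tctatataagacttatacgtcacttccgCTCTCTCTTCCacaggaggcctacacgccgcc
Rps21, chr2:180257349-180257408, plus strand: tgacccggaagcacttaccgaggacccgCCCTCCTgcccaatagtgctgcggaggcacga
The longest run had 11 bases in Rps18 and 7 in Rps21. A match of letters says nothing of the factor that may bind it, and the length of the run was not set against the ratios.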

How the data were processed

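RNA from 4 control and 4 mutant pools was amplified, labelled and hybridised to 4 two-colour arrays, per the labels' protocols, and read with Agilent Feature Extraction 9.5.1, per the submitters' processing notes. The deposited scanner files hold mean and background intensity for each spot and channel. The authors' deposited series table holds a log10 ratio of red over green, which equals the scanner files' own within 5e-07. From the mean and background intensity, normexp with an offset of 50 and loess (span 0.3) gave log2 ratios (R 4.3.3, limma 3.58.1). The deposited intensity and log10 ratio were converted to log2 here. Spots of a probe were averaged, control spots left out, and a gene was read from its brightest kept probe.

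Log2 ratios were tested against 0 with limma's moderated test and adjusted over all features (Benjamini-Hochberg). The pools are separate, so p-values measure the spread between these 4 pairs, and their number limits the precision. Scripts were tested on simulated data, and plots were made with matplotlib 3.10.9. The members and lists were chosen with earlier results of these data known. Members were named by a rule: the 6 highest and 6 lowest means, the 6 widest gaps in brightness, any that passed the threshold, and a fixed set of 14, with others marked where named; a list's 2 brightest genes stand for it. Probe coordinates are mm7, as the arrays give them. Sequences of starts are RefSeq's on GRCm38.p6. Alternatives were other background correction, centring, filters, windows, probe choices and leaving out arrays. Values of 1 member, 1 listed gene and some probe sequences are not reported here.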

Additional observations from a re-analysis of the deposited data

How the results depend on the processing

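The members' positive median held under every alternative run for the gene, probe and equal-brightness scales, but its size did not hold. With the scanner software's processed signals the gene median was 0.15, the mean of the array medians 0.16 and the median bright minus dim difference 0.016. Members higher at an unadjusted p under 0.05 then numbered 24 genes, 30 probes, 20 probes at equal brightness and 5 bright-dim pairs, with 1 gene and 1 probe lower. The shares of all features higher at that level were 6.35%, 6.53%, 6.13% and 4.01%, in the same order. The deposited log10 ratio, as log2, gave a gene median of 0.13, an array mean of 0.15, and 20 genes higher and 1 lower. Median centring in place of loess gave medians of 1.18 for genes, 0.94 for probes and 0.45 for pairs, and an array mean of 1.18, with 81 genes, 117 probes and 21 pairs past an adjusted p of 0.05, 81 genes and 124 probes at an unadjusted p under 0.05, and 1 pair lower. At an unadjusted p under 0.05, 46.2% of all genes, 44.5% of all probes and 33.9% of all pairs were then higher. The shares of all features past the adjusted p are not given here. On the equal-brightness scale about 500 probes on each side gave 62 members higher and 0 lower, and about 25 gave 3 lower. Adding the renamed probes gave 1 gene lower. Leaving out 1 array at a time gave gene medians of 0.28 to 0.42, 44 to 53 genes higher and 0 to 10 past the adjusted threshold. It gave 0 to 11 probes past that threshold, an equal-brightness median of 0.05 to 0.16 with 0 to 2 past it, 20 to 41 higher and 0 to 8 lower, and 13 to 17 pairs higher. The median pair difference at equal brightness ran from -0.04 to 0.07. The analysis was paired by array. Each array pairs 1 control pool with 1 mutant pool, and their log2 ratio was tested against 0. The cause of these shifts was not tested. Limits: the dye orientation is the same on all arrays, and above an A of 17 few non-member probes are left to compare with.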
